A study of Mus musculus with 2 samples.

Results

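Spliced transcript models that follow a longer transcript from its 5′ side and then stop before its last introns are the subject here. The deposited annotation calls them incomplete splice matches of the Prefix subtype, and the members are the Prefix models of annotated genes, chosen by the class the authors gave them and by a count of 2 or more reads. Class, chain and read number are therefore a description of the choice, with no test. There were 412 such models among the 85327 models of replicate 1 and 377 among the 82087 of replicate 2. Matched by chromosome, strand and intron chain, they formed 615 distinct chains in 499 genes, and 174 chains in 146 genes were members in both libraries. The libraries are long-read RNA sequencing of heart tissue from 2-month-old female mice of the B6CASTF1/J hybrid, each made from 2 µg of total RNA. The labels gave 1 group with 2 biological replicates, no treatment and no second genotype, so there was no contrast of conditions. One label numbered the animals 03 and 04, while the library text named 03 for both and the donor identifier was shared. It is therefore not settled that 2 animals were sampled. The p-values set the difference between these 2 libraries against counting error alone, and that difference may be technical. They measure no spread between animals.

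A messenger RNA is cut and given its poly(A) tail a short way after a poly(A) signal, most often the hexamer AATAAA or ATTAAA. Such a signal can be used inside an intron before that intron is spliced out. The transcript then has the first exons of the gene and an early 3′ end, and the encoded protein can lose its C-terminal part. Long reads show the kept exons and the end on 1 molecule. A read can also stop early because its cDNA or RNA was incomplete, or because the primer for cDNA synthesis annealed to a run of A inside the transcript.

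Ends that lay in an intron of the annotated parent, but in an exon of some other annotated transcript, could be read as sequence. Shown are 8 such chains with many reads that ended within 20 bases of each other in both libraries. As recorded, they are early ends with many reads and known letters, but not the highest of all early ends. The Synpo chain described below, with 32 reads in replicate 1 and 36 in replicate 2, is not among them. The set of 8 was picked with the values in view. The 30 bases before the end are on the transcript strand, from the GENCODE M21 transcripts on mm10, and capitals mark AATAAA or ATTAAA, including overlapping matches. Lrp6 lay at chr6:134540774-134540803, Caprin1 at chr2:103767107-103767136, Sik3 at chr9:46202856-46202885 and Ankrd11 at chr8:122897020-122897049. Slc25a23 lay at chr17:57047051-57047080, Mccc1 at chr3:35973380-35973409, 2610005L07Rik at chr8:20395392-20395421 and Fam149b at chr14:20376258-20376287. Sik3 and Fam149b are on the plus strand and the others on the minus strand.
Lrp6: taaagcttatacaATTAAAaaatataaaaa
Caprin1: cactcAATAAAtacttgttgaatgaatgaa
Sik3: agggaagttgaAATAAAatggttttcatgg
Ankrd11: atgtaaatgaaAATAAATAAAccagcttac
Slc25a23: ggccttcataaacccttcctcttgtctggg
Mccc1: cctctaaactAATAAAacagagactctctc
2610005L07Rik: atagaactgtttgaaatcacaacagactat
Fam149b: tgagttgtagaATTAAAggcatacaccaac
The hexamer was present in 6 of these 8 stretches and began 17 to 25 bases from the end, with the last base of the model counted as 1. All 8 ends are annotated 3′ ends of other transcripts of the gene, which the files record at the annotated base. Their agreement between libraries and the hexamers before them therefore do not measure where single reads stopped. Of all 26 chains that met the same conditions, 19 had AATAAA or ATTAAA in these 30 bases. The same limit applies to those of the 26 that lay at an annotated end. In 40-base windows tiled over all transcripts of the member genes, 2.93% held either hexamer, and 73.1 and 73.8% of annotated models with 2 or more reads had one in their last 40 bases.

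A second set of ends lay inside a coding exon. Of the 174 shared chains, 4 had 12 or more A in the 20 bases after the end in both libraries where the bases could be read, and 3 of them are shown. Each stretch has the last 30 bases of the model in lower case and then the 20 bases that follow in the annotated exon, with every A of these in capitals. Son lay at chr16:91654670-91654719 and Kmt2e at chr5:23485422-23485471 on the plus strand, and Thoc2 at chrX:41814574-41814623 on the minus strand.
Son: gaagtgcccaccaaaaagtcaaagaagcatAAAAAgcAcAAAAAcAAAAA
Kmt2e: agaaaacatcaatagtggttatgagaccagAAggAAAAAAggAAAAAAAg
Thoc2: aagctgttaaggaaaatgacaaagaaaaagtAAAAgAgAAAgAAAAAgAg
The count of A was 16 of 20 for Son, 15 for Kmt2e and 14 for Thoc2. None of the 3 shown held AATAAA or ATTAAA in the 30 bases before the end, and their model ends were at the same base in both libraries. Son had 37 and 33 reads, but Kmt2e and Thoc2 had only 2 in each library, below the floor of 3 reads. The ends of Kmt2e and Thoc2 were also annotated 3′ ends, which the files record at the annotated base. For these 2 the shared base is therefore not a measure of where reads stopped. Tiled 20-base windows over the transcripts of the member genes held 12 or more A in 1.18% of cases.

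Prefix models were a small share of the reads. The members held 2498 reads in replicate 1, or 0.326% of its 766589 spliced reads on annotated genes (Wilson 95% interval 0.313 to 0.339%), and 1934 reads in replicate 2, or 0.303% (0.290 to 0.317%). These intervals cover counting error only. Just outside the rule were 1536 and 1433 Prefix models with a single read, and 198 and 174 members had exactly 2. Members with 10 or more reads numbered 46 and 39. One read corresponded to 1.16 CPM in replicate 1, scaled to the reads on annotated genes, and 1.41 CPM in replicate 2. Genes typical of heart muscle were abundant: 6 cardiomyocyte markers summed to 41978 and 45110 CPM, against 0 reads for both liver markers. The red cell markers Hba-a1 and Hbb-bs were also abundant, summing to 25534 and 23673 CPM, and their part in the results was not tested.

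As recorded, most members kept an annotated 5′ end. Their first base was the first base of an annotated transcript of the gene in 392 of 412 models (95.1%) of replicate 1 and in 356 of 377 (94.4%) of replicate 2. The same 392 and 356 models were all that started within 50 bases of an annotated start. The exact match is thus how the files record starts, and where single reads began was not tested. Early ends were recorded for fewer. For 331 and 284 members the longer transcript was annotated, and 104 of the 331 (31.4%, Wilson 95% interval 26.7 to 36.6%) and 83 of the 284 (29.2%, 24.2 to 34.8%) ran to within 50 bases of the 3′ end of that transcript or past it. As recorded, these models did not end early and held intron sequence of the parent. The first missing junction was the parent's last in 92 of the 104 and 70 of the 83. Almost all, 102 and 81, lay at an annotated end, and where their single reads stopped was not tested. For the other 81 and 93 members no annotated transcript began with the chain, and only an unannotated longer model did.

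Among members with an annotated parent, the end lay inside the last exon kept in 76 (23.0%) of replicate 1 and 62 (21.8%) of replicate 2. It lay in the next intron in 126 (38.1%) and 110 (38.7%). A few, 25 (7.55%) and 29 (10.2%), had crossed that intron and stopped short of the parent's end. The chains kept a median of 66.7% of the parent's introns in both libraries, with an upper quartile of 85.7% in replicate 1 and 86.2% in replicate 2. All introns but the last were kept by 150 and 136 of them. In coding parents the end preceded the stop codon in 191 of 314 members (60.8%) of replicate 1 and in 165 of 269 (61.3%) of replicate 2. Both libraries gave nearly the same division, within the counting intervals.

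**Figure D1:**
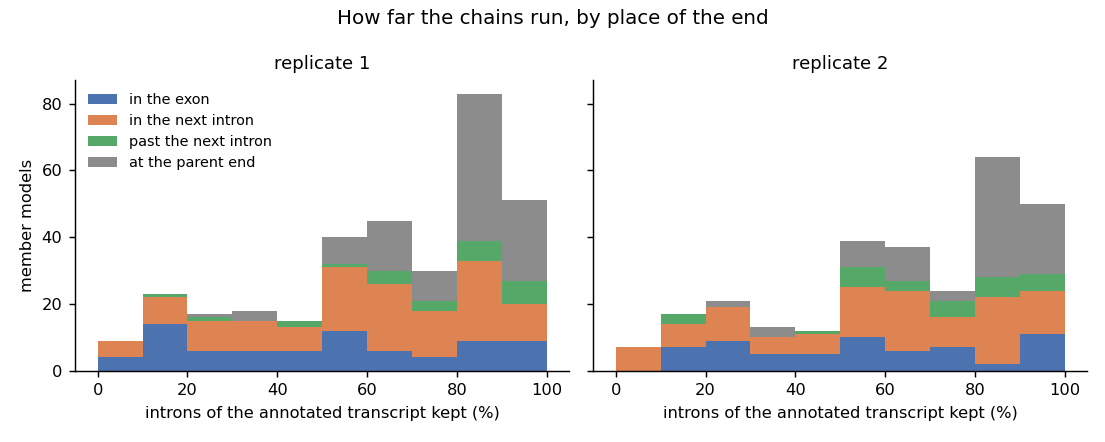
Number of member models with an annotated parent (vertical axis) by the percentage of the parent's introns that they kept (horizontal axis), for replicate 1 and replicate 2, coloured by where the 3′ end lay. The median member kept 66.7% of the introns in both libraries, and 150 and 136 members lacked only the last.

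Introns that were entered and introns that were crossed differed in size. The next intron had a median length of 3800 bases in replicate 1 and 3583 bases in replicate 2 where the end lay inside it. Where the read ran to the parent's end, the intron had a median of 411 and 334 bases. Ends in the next intron lay at a median of 767 and 1013 bases past the exon, after a median of 24.1 and 23.2% of the intron.

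Each 3′ end was also placed against all annotated transcripts of its gene. An annotated 3′ end lay within 50 bases for 236 of 412 members (57.3%, Wilson 95% interval 52.5 to 62.0%) and for 204 of 377 (54.1%, 49.1 to 59.1%). All 236 and 203 of the 204 were at that very base, which is how the files record the ends and not a measure of where single reads stopped. Of the rest, 91 and 93 members ended in an annotated exon, 77 (18.7%, 15.2 to 22.7%) and 69 (18.3%, 14.7 to 22.5%) in an intron of every annotated transcript, and 8 and 11 outside the gene. In the spliced Suffix models, which keep the 3′ side, 5 of 5249 and 8 of 4799 ended in an intron (0.0953 and 0.167%). New combinations of known splice sites (NIC) did so in 0.749 and 0.679%, and models with an unannotated splice site (NNC) in 2.24 and 2.32%. The Prefix intervals for intronic ends did not overlap those of the other classes, which the class rules partly set, since a Suffix model must hold the last junction of its parent. Models are not replicates, so no test was made over them.

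**Figure D2:**
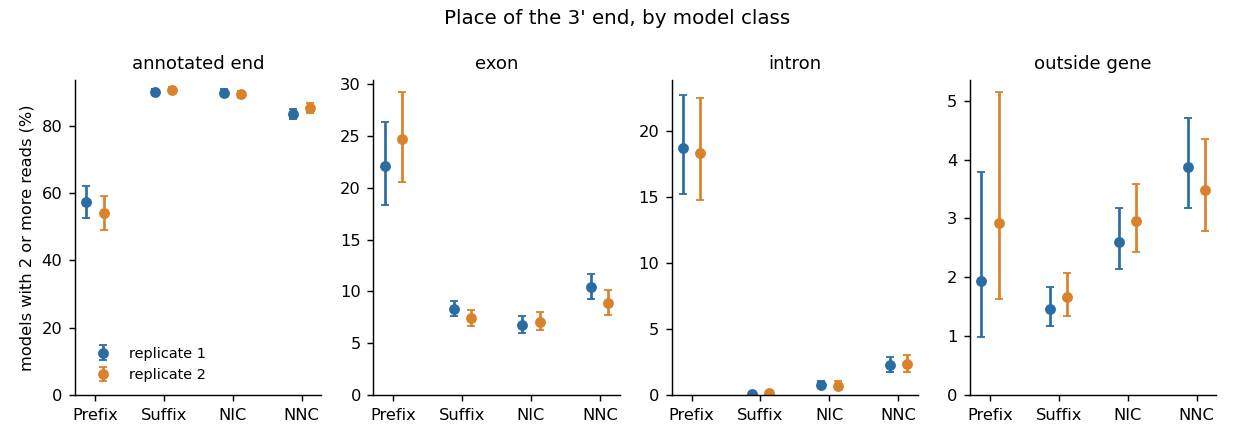
Percentage of models with 2 or more reads (vertical axis, one panel per place of the 3′ end, with scales that differ between panels) for Prefix, Suffix, NIC and NNC models, with points for each replicate and Wilson 95% intervals. Prefix models end in introns in 18.7 and 18.3% of cases, against 2.32% or less in the other classes.

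The annotated end that a member reached most often belonged to a coding transcript. Of 236 such members in replicate 1, 145 shared the end with a protein-coding transcript, 51 with one annotated as retained intron, 19 with one annotated as subject to nonsense-mediated decay and 16 with a processed transcript. Of 200 in replicate 2, the counts were 122 for protein-coding, 35 for retained intron, 21 for nonsense-mediated decay and 19 for processed transcripts. The transcript was looked up at the end in the library with more reads of the chain. Where several shared the end, the nearest was taken and, at equal distance, the one with the most reads. Among members at an annotated end, 102 and 81 had run to the parent's own end, so these ends were not all early.

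As recorded, poly(A) signals were frequent before annotated ends and scarce before exonic ones. AATAAA or ATTAAA stood in the last 40 bases of 187 of 232 members (80.6%) of replicate 1 with an annotated end and of 150 of 199 (75.4%) of replicate 2. Annotated models with 2 or more reads had 73.1 and 73.8%. Since the files record annotated ends at the annotated base, both sets of shares describe ends of the annotation. They do not measure where single reads stopped. Members that ended in an exon had a signal in 10 of 78 (12.8%, Wilson 95% interval 7.12 to 22.0%) and 13 of 78 (16.7%). Suffix models with an exonic end had one in 57.8 and 53.8%. The counting intervals of exonic Prefix ends lay below those of exonic Suffix ends in both libraries, and above the 2.93% of tiled windows. The class rules may set part of this gap too, since a Suffix model must hold the last junction of its parent. Many exonic Prefix ends also lay on exon borders, as given below. Whether the model builder placed them there was not tested, so the 40 bases read may not be those before the end of reads. Models are not replicates, and no test was made over them. At the parent's own end, 93.1 and 89.7% of members had a signal, and almost all of these ends were annotated ones too. Sequence could be read for too few ends in the next intron and for none in an intron of every transcript, since no genome was used here, so no share is given for them.

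A-rich sequence after the end was counted only where the exon went on, which left too few members for a share in most classes. An exception was 22 members of replicate 1 and 10 of replicate 2 whose end lay inside an exon of the parent at the annotated end of a shorter transcript. Of those that could be read, 9 of 20 (45.0%, Wilson 95% interval 25.8 to 65.8%) and 5 of 9 (55.6%, 26.7 to 81.1%) had 12 or more A in the next 20 bases, and 1 of 20 and 0 of 8 had a poly(A) signal. The subgroup was chosen after its values were seen. Whether reads began from such A runs was not tested.

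Exon borders held many of the remaining ends. In replicate 1, 41 of the 76 members that ended inside the exon (53.9%) did so on its last base, and in replicate 2 the count was 44 of 62 (71.0%). Another 9 and 10 members ended on the first base of the following exon after crossing the intron. Among the shared chains, 12 ended on the last base of an exon in both libraries, with Sec62, Hcfc2 and Eif5b the highest, and 4 on the first base of the next exon, with Kansl2 the highest. Whether the border was where the reads stopped, or where the model builder placed the end, was not tested.

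Members with few reads were often absent from the other library. Of the 412 chains of replicate 1, 174 (42.2%) were members in replicate 2, and of the 377 of replicate 2 the same 174 (46.2%) were members in replicate 1. A model of any class and read number with the same chain existed for 69.9 and 71.1%. With 2 reads only, 19.7 and 24.1% were members again, and with 10 or more reads 84.8 and 84.6% were, while all 46 and all 39 had at least 1 read in the other library. The single-read models outside the rule had the same chain in the other library for 277 of 1536 and 313 of 1433.

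**Figure D3:**
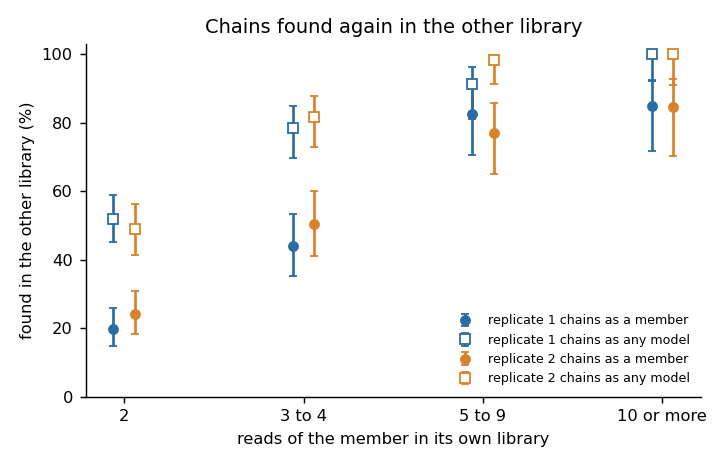
Percentage of member chains found in the other library (vertical axis) by the number of reads of the member in its own library (horizontal axis), as a member (filled circles) or as a model of any class (open squares), with Wilson 95% intervals. Chains with 10 or more reads were all present in the other library, and 52.0 and 48.9% of those with 2 reads were.

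As recorded, ends of shared chains mostly coincided. The models ended within 20 bases of each other for 141 of 174 chains (81.0%) and at the same base for 115. Agreement was 98 of 107 for annotated ends, 23 of 37 for exonic ends and 18 of 25 for intronic ends, classed in replicate 1. Annotated ends thus gave 98 of the 141 chains, and 85 of the 115 at the same base. The files record such ends at the annotated base, so their agreement is not a measure of where single reads stopped. Zfp970, a zinc-finger gene of a family with many similar copies whose reads may be shared out uncertainly, had 44 and 52 reads on 1 chain with ends 1148 bases apart.

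No member chain that was tested was called different between the libraries. A two-sided exact binomial test was run on all 10617 matched spliced models with 10 or more reads in total, and it called 10 of them, 0.0942%, at a Benjamini-Hochberg adjusted p below 0.05 and a fold of 2. Of the 110 member chains tested, 0 were called (0%) and 6 had an unadjusted p below 0.05. A count of 0 among 110 is near the share over all models and is no result about the members. With preset variation, edgeR's exact test called 0 members and 0 of all models, so it does not set the members apart. Replicate 2 was within 2-fold of replicate 1 for 98 of the 110, and the median log2 ratio of replicate 2 over replicate 1 was 0.13, against 0.05 over all models tested. It sets 1 library against another and says nothing of a condition.

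**Figure D4:**
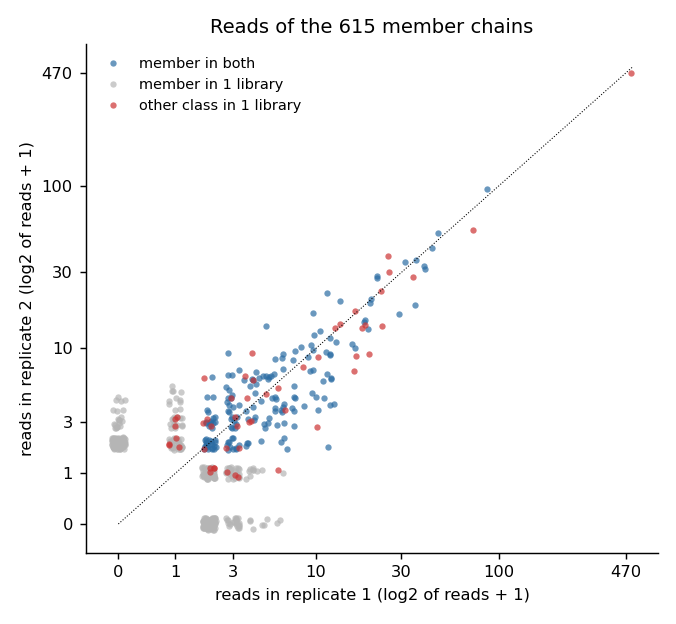
Reads in replicate 2 (vertical axis) against reads in replicate 1 (horizontal axis) for the 615 member chains, both on a log2 scale of reads + 1 with small random shifts, coloured by whether the chain is a member in both libraries, in 1, or has another class in 1. The dotted line marks equal reads, and 98 of the 110 chains tested lay within 2-fold.

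Some chains changed class between the libraries. A chain that was a member in 1 library carried another class in the other for 52 of 615 chains (8.46%), and 51 of these 52 had no annotated parent. Atp2a2, which pumps calcium back into the sarcoplasmic reticulum, had 27 reads as Prefix in replicate 1 and 38 as NIC in replicate 2 on a chain of 21 introns. Nebl, a nebulin-like Z-disc protein, showed the opposite order of classes, with 35 reads as NIC in replicate 1 and 26 as Prefix in replicate 2.

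This carried over to shares per gene. Prefix reads were compared with the other spliced reads of each gene by a two-sided Fisher's exact test, and 8 of 1183 genes (0.676%), all with 20 or more spliced reads in each library and at least 1 Prefix read, passed a Benjamini-Hochberg adjusted p of 0.05. Among them were Gm34302, Ccpg1, Nebl, Mcf2l, Chpt1, Tmem245 and Anks1. In Nebl the Prefix share was 15.4% in replicate 1 and 59.7% in replicate 2. With a chain counted as Prefix in both libraries if it was so in either, 0 of the 1183 genes passed.

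In most of these 1183 genes, which exclude genes with no Prefix read, Prefix models were a minor product, with a median share of 1.15% of spliced reads. Among those with a member chain in both libraries, the highest mean share was that of Son, a large nuclear speckle protein that aids splicing, with 72.5 and 86.8% (37 of 51 and 33 of 38 reads). Sik3, a salt-inducible kinase, followed with 28 of 37 and 18 of 24 reads, Lrp6, a Wnt co-receptor, with 80.0 and 70.4%, and Synpo, an actin-associated protein, with 32 of 43 and 36 of 50 reads. Ankrd11, a chromatin regulator, had 54.3 and 66.7%. The order among these 5 was not settled, since 24 to 51 spliced reads lay behind each share. Dus1l had 39.2 and 69.8%, Ryr2 24 of 60 and 27 of 66 reads, Phf10 34.4 and 42.4%, AC149090.1 35.3 and 41.3%, and Nebl 15.4 and 59.7%. For Nebl and Dus1l the gap between libraries came with the change of class name, since their shares by the joint count were 69.2 and 59.7% and 72.5 and 69.8%.

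Chains recorded as stopping in the next intron at an annotated end of another transcript were well supported by reads in both libraries. Where their single reads stopped was not tested. Lrp6 had 36 and 19 reads on a chain with 1 of 22 introns, which ran on for 878 bases of an intron of 21058 bases, ending with the annotated retained-intron transcript Lrp6-205. The full parent had 7 and 5 reads. Synpo had 32 and 36 reads, with 1 of 2 introns kept and an end 1907 bases into an intron of 5624 bases, while the parent had none. Sik3 had 28 and 18 reads on a chain with 13 of 23 introns, ending 815 bases into the intron, against 0 reads for the parent in both libraries. Each of these 3 genes gave more reads to the early end than to the parent in every library. The parents were 9368 bases long in Lrp6, 5060 in Synpo and 4180 in Sik3. Loss of the far part of long molecules in the libraries was not tested.

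Caprin1 and Slc25a23 show the same arrangement with the full form at different levels. Caprin1, an RNA-binding protein of stress granules, had 22 and 30 reads on a chain that kept 17 of 18 introns, against 58 and 39 reads on the parent. Slc25a23, a mitochondrial carrier, had 20 and 14 reads on a chain with 8 of 9 introns that ended 135 bases into the next intron, against 1 read on the parent in each library. Ankrd11 had 13 and 21 reads and Mccc1, a subunit of methylcrotonyl-CoA carboxylase, 9 and 13, fewer than its parent had in each library.

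**Figure D5:**
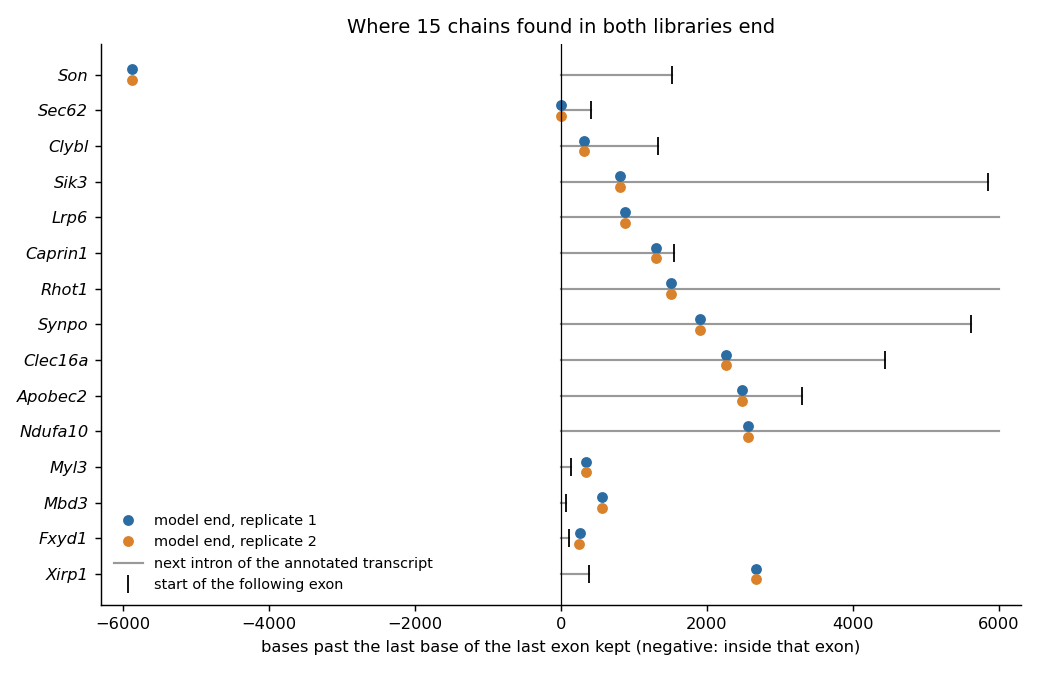
Position of the 3′ end for 15 chains that are members in both libraries, in bases past the last base of the last exon kept (horizontal axis, negative values inside that exon). Grey lines are the next intron of the parent, drawn up to 6000 bases, and black ticks the start of the exon after it. Ends of both replicates coincide at this scale, with Son 5881 bases before the end of its exon and Myl3, Mbd3, Fxyd1 and Xirp1 past the intron.

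Ends in an intron of every annotated transcript in both libraries were found for 24 chains. The highest was Rhot1, the mitochondrial transport GTPase Miro1, with 17 and 11 reads on a chain with 18 of 19 introns and ends 1506 and 1507 bases into the last intron. Its parent had 4 and 6 reads. Fam120aos had 16 and 11 reads, which were all of its spliced reads, with ends 13 bases apart. Ndufa10, an accessory subunit of respiratory complex I, had 7 and 10 reads with ends 2559 and 2567 bases into an intron of 12103 bases, a minor product beside 865 and 721 reads on the parent. Clec16a, which acts in mitophagy, had 8 and 5 reads and ended at the same base, 2261 bases into the intron. A second Clec16a chain with 3 and 5 reads ended at that base too.

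The others of the highest 10 had between 3 and 12 reads in each library. Apobec2, a muscle member of the APOBEC family, had 5 and 6 reads with the same end in both, past the stop codon of its parent. Clybl, a mitochondrial lyase, had 5 and 6 reads with ends 1 base apart, and Asb2, a muscle adaptor of ubiquitin ligases, had 3 and 7 reads with ends 1 base apart. Nupl1, a nucleoporin, had 4 and 6 reads, all of its spliced reads, and its end lay in an exon of the gene Gm49336 on the same strand. Ends of Rmdn1 (11 and 7 reads) lay 779 bases apart. For Ryr2, the calcium release channel of the sarcoplasmic reticulum, a chain of 21 introns had 12 reads in each library, but its ends lay 1628 bases apart and no annotated transcript began with it.

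Exonic ends in both libraries were found for 30 chains. Son had 37 and 33 reads that all fell to a model of 362 bases ending 5881 bases before the end of its exon, at the A-rich stretch shown above, while the 7945-base parent had 0 and 1 read. Kansl2, a subunit of a histone acetyltransferase complex, had 38 and 30 reads and ended on the first base of an exon after crossing an intron of 1862 bases. Sec62, which helps proteins into the endoplasmic reticulum, had 21 and 19 reads on a chain with 3 of 7 introns that ended on the last base of an exon, beside 66 and 59 reads on the parent. Hcfc2 had 8 reads in each library and Eif5b, a factor that joins ribosomal subunits, 12 and 4, both with an end on an exon border. Ccnl2, a cyclin linked to splicing, had 19 and 15 reads with ends 305 bases apart. Luc7l2, which associates with the U1 small nuclear ribonucleoprotein, had 9 and 7 with ends 1555 apart, and Ccdc47 had 6 and 8 with ends 1278 apart.

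Models that ran to the parent's end with an intron included formed 44 of the shared chains. Myl3, the essential light chain of ventricular myosin, had 24 and 26 reads that kept 5 of 6 introns and held the last intron of 132 bases, which is 0.548 and 0.718% of its spliced reads. Mbd3, a subunit of the NuRD complex, had 20 reads in each library with an intron of 76 bases included, beside 32 and 26 on the parent. Xirp1, an actin-binding protein of the intercalated disc, had 11 and 13 reads, against 20 and 25 on the parent, and an intron of 391 bases included. Qsox2 had 12 and 11 reads against 3 and 4 on its parent. Fxyd1, the sodium pump regulator phospholemman, had 12 and 9 reads, and Plin5, which coats lipid droplets, had 11 and 10. Reads from unspliced or partly spliced RNA and from a stable intron-holding transcript cannot be told apart here.

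Qk and Nexn led the shared chains that had no annotated parent. Qk, the RNA-binding protein quaking, was the most abundant shared chain, with 86 and 98 reads (100.1 and 138.5 CPM, mean ± SD 119 ± 27.1, n = 2), and it ended at the annotated end of Qk-201. Nexn, nexilin of the Z-disc, had 2 chains of 11 introns with 47 and 46 reads and with 37 and 33 reads, both ending with Nexn-212. In all, 9 member chains came from Nexn, and they held 23.5 and 29.5% of its spliced reads.

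Adult ventricle muscle relies on the alpha myosin heavy chain encoded by Myh6, which had the most member chains and many rare ends. Its 20 chains kept from 6 to 37 introns, 15 of them had an exonic end and 9 ended on the last base of an exon in either library. They held 65 and 41 reads, 0.249 and 0.166% of its 26150 and 24636 spliced reads. The highest, with 21 of 38 introns, had 8 and 10 reads, and its ends lay 33 bases apart. In total 432 of the 499 genes had a single chain. Genes with more reads more often had a member: at 1000 or more spliced reads in total, 38 of 195 genes (19.5%) had a member chain, against 202 of 4295 genes (4.70%) with 20 to 99, whereas the Prefix share of spliced reads ran from 0.181% in the first set to 1.24% in the second.

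Gene lists chosen with earlier results of these data known are described by counts beside the 6.21% of all 6534 genes with 20 or more spliced reads that had a member chain. Of sarcomere and Z-disc genes, 11 of 35 had one (31.4%), with high chains in Nebl, Myl3 and Xirp1. Of calcium handling and channel genes, 8 of 25 had one (32.0%), led by Atp2a2, Ryr2, Fxyd1 and Hrc. The Hrc chain had 6 reads as another incomplete subtype, Both, in replicate 1 and 4 as Prefix in replicate 2. Of the metabolic lists, 5 of 32 respiratory genes (15.6%) and 6 of 38 genes of fatty acid and carbohydrate metabolism (15.8%) had one. Ndufa10 in the first and Idh2, with 4 and 7 reads and a last intron included, in the second were the only members of these lists in both libraries. These 4 lists hold some of the most abundant genes of the heart, and their shares were not set against genes of like abundance. Splicing and RNA-binding genes had one in 8 of 34 (23.5%), with Prefix reads at 5.53% of their spliced reads against 0.474% over all genes, of which Qk and Son gave most. Hnrnpa2b1, an hnRNP protein, had a chain of 1 intron with 16 reads as subtype Both in replicate 1 and 7 reads as Prefix in replicate 2, and it ended at the same exonic base in both.

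In the poly(A) machinery 1 of 17 genes (5.88%) had a member, near the share of all genes, and Prefix reads were 1.06% of the list's spliced reads. The gene was Papola, the poly(A) polymerase, with 4 and 1 reads ending 303 bases into an intron at the end of the retained-intron transcript Papola-204. Among receptors with shortened forms, 2 of 12 had one (16.7%), and Prefix reads were 1.54% of the spliced reads of the list. Lifr, the receptor for leukaemia inhibitory factor, which has a known soluble form in mouse serum, had 3 and 5 reads on a chain with 6 of 19 introns, both ending at the same base 659 bases into the next intron. Its parent had 4 and 3 reads. Pdgfrb had 0 and 3 reads on an intronic chain with no annotated parent. Of 21 extracellular matrix genes with 20 or more spliced reads, 0 had a member chain, at 11 Prefix reads among 4797.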

How the data were processed

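The authors deposited whole-number counts of long reads per transcript model, 1 table per library, not normalized and not pooled, with a model annotation on mm10 built on GENCODE M21 by TALON, per the file headers. Aligner, priming and filters: not given in the sources used here. Those counts were 905154 and 745375 reads, of which 859191 and 707758 fell on annotated genes, the base of CPM. Members and lists were chosen with earlier results of these data known. Chains, ends and parents were compared with GENCODE M21 in Python 3.11.15. A parent is the annotated transcript with the most reads that begins with the chain, and places were judged against all such transcripts. Ends within 50 bases of an annotated end count as annotated. Sequences came from the M21 transcripts, since no genome was used: letters at ends in an intron of every transcript, fixed as a choice to show, could not be read, and A counts after the end were too few (under 80% of members) for a share by class. Named chains were the 15 highest in both libraries, the 10 highest with intronic and with exonic ends, the 10 genes with the highest Prefix share and the highest genes of each of 8 lists; other genes named were chosen after their values were seen. With no residual degrees of freedom, edgeR 4.0.16 (exact test) and DESeq2 1.42.0 (size factors) served as alternatives. The binomial test was tested on simulated data. Counts of a library are limited by a floor of 3 reads. Items that the naming rules select but that are withheld are not reported here.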

Additional observations from a re-analysis of the deposited data

Results flagged for a closer look

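Prefix models also occurred in genes that GENCODE M21 does not hold, outside the models described above. Intergenic genes of this kind carried 33 reads on 9 Prefix models in replicate 1, of which 1 model had 21, and 21 reads on 3 models in replicate 2, of which 1 had 16. Antisense genes carried 15 reads on 8 models in replicate 1, with at most 4 on a model. Each sum is above the 3 reads that a count of 0 allows, but that floor applies to a single count and not to a sum over models. No control samples exist for comparison.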

How the results depend on the processing

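The number of member chains, 615, was 142 at 5 reads, 58 at 10 reads and 3238 at 1 read, and 377 to 412 in a single library. The share of chains found again as members rose with the read minimum: replicate 1 chains gave 83.5% at 5 and 84.8% at 10 reads, replicate 2 chains 80.0 and 84.6%, and any model with that chain gave 69.9 and 71.1%. Annotated ends (mean of both libraries 55.7%) were 64.7% at 10 reads and 64.4% weighted by reads. Intronic ends (18.5%) were 13.8% at 5 reads, 9.48% at 10 reads, 11.2% weighted by reads and 17.1% against transcripts of any gene. Poly(A) signals at annotated ends (78.0%) were 68.4% for AATAAA alone, 88.0% for 12 variants and 88.8% at 10 reads, and at exonic ends (14.7%) 19.1% within 60 bases, 11.5%, 30.8% and 0% for the same 3 choices. A-rich sequence at exonic annotated ends (50.3%) was 26.7% for a run of 6 A and 34.7% for 15 A. Ends at the parent's end (30.3%) were 28.2% weighted by reads, a measure added after the data were seen. Models called between libraries, 10, were 4 with no read minimum, 83 with no fold minimum and 0 with edgeR's exact test at a preset variation of 0.1 or 0.2, and members called stayed at 0 in all 7 alternatives. Genes with a called Prefix share, 8, were 5 at 50 spliced reads and 0 with a joint class, an alternative chosen after seeing the data. The cause was not tested, apart from the smaller sets that higher minimums leave. No paired analysis was possible because the labels give 1 group. Of 70 alternative values, 38 kept their call or moved little, which for counts means within 1.5 times and for shares within the spread or counting interval.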
